A study of Ovis aries with 6 samples.

Results

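Caseins are the main proteins of milk, and their messenger RNAs were measured here in the somatic cells of sheep milk, a shed mixture of mammary epithelium and immune cells. The casein set held every row of the deposited table whose transcript maps to CSN1S1, CSN1S2, CSN2 or CSN3, which gave 5 transcripts of 4 genes among 49705 transcripts. CSN1S1 was represented by a pair of transcripts and each other gene by one, and all 5 were abundant enough to be tested. The linseed group was 3 libraries from 3 Comisana ewes that ate grass, hay and a concentrate for 3 weeks, the concentrate being 20% extruded linseed by dry matter. The control group was 3 libraries from the same 3 ewes, which at 90 days of lactation had first eaten grass hay and a commercial concentrate for 3 weeks. No label field names the diet: the letter in each sample's title, read with the series design, placed it. Linseed always came after the control diet, so an effect of diet and one of time in lactation cannot be told apart. Each library is 1 milk sample of 1 ewe.

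The alpha-S1-, alpha-S2- and beta-caseins (CSN1S1, CSN1S2 and CSN2) carry clusters of phosphorylated serines that bind calcium phosphate, and kappa-casein (CSN3) sits on the surface of the casein micelle and keeps it in suspension. Chymosin cuts kappa-casein when milk is curdled for cheese. The genes are transcribed in the secretory epithelium of the mammary gland, where prolactin acts through JAK2 and STAT5 together with glucocorticoids.

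Levels are given as RPKM, reads scaled to transcript length and to library size, which sets genes of different length on one scale. The library totals solved from the table's steps were 4941935 to 19912996 reads with linseed and 8805705 to 22644050 reads in controls. The same steps gave transcript lengths of 854 to 1380 nt for the caseins and 12569 to 2952989 reads behind each casein value. Counting error was therefore at most 0.892% of a value, far below the differences between sheep.

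All 5 casein transcripts were lower with linseed than in controls in each of the 3 ewes, and none passed limma's test over all transcripts (Benjamini-Hochberg adjusted p under 0.05, here called). Summed casein RPKM was 79388, 104611 and 8008 with linseed in sheep 1, 2 and 3, against 397331, 289571 and 31442 in the controls of sheep 1, 2 and 3. The control value was 5.01, 2.77 and 3.93 times the linseed value of the same ewe. Sheep 3 differed from the other ewes by more than the diets did. The control sum of sheep 1 was 12.6 times that of sheep 3, and the linseed sum of sheep 2 was 13.1 times that of sheep 3. Within a diet, sheep 1 and 2 differed from each other by less than the diets did. Sheep 3 was lowest under both diets, and its control sum lay below the linseed sums of the other ewes, so the groups overlapped. In RNA from a mixture of cells, fewer casein-making cells and less casein RNA per cell cannot be told apart.

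Alpha-S1-casein had both the largest and the smallest fitted change of the 5 transcripts. Its transcript with the higher mean, XM_012179357.2, had 5898, 19274 and 1567 RPKM with linseed in sheep 1, 2 and 3, against 67233, 61220.4 and 8182 RPKM in the controls of sheep 1, 2 and 3. Sheep 1 showed the widest gap of any casein transcript, with a control level 11.4 times its linseed level. The fitted log2 change of XM_012179357.2 was -2.52 ± 1.01 (SE, n = 3 per group), with a limma adjusted p of 0.291. Its other transcript, NM_001009795.1, had 10909.9, 7120.1 and 568.6 RPKM with linseed, against 33869, 13509 and 1720.4 RPKM in controls, in the same order of sheep. The fitted log2 change of NM_001009795.1 was -1.38 ± 1.23 (SE), with a limma adjusted p of 0.579.

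Alpha-S2-casein was the least abundant casein gene in all 6 libraries. CSN1S2 had 4289, 11812 and 1548 RPKM with linseed in sheep 1, 2 and 3, against 33421, 47032 and 4493 RPKM in the controls of sheep 1, 2 and 3. Within a diet, sheep 2 stood highest, whereas for CSN2 and CSN3 the controls were highest in sheep 1. The log2 change of CSN1S2 was -2.16 ± 0.97 (SE, n = 3 per group), with a limma adjusted p of 0.317.

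Beta-casein followed the same order of diets. CSN2 had 20493, 29881 and 2291 RPKM with linseed in sheep 1, 2 and 3, against 119861, 70662 and 8144 RPKM in the controls of sheep 1, 2 and 3. Its log2 change was -1.87 ± 1.12 (SE, n = 3 per group), with a limma adjusted p of 0.420. The control level of sheep 3 was below the linseed levels of sheep 1 and 2.

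Kappa-casein had the highest mean of the casein genes under both diets. CSN3 had 37798, 36524 and 2034 RPKM with linseed in sheep 1, 2 and 3, against 142947, 97148 and 8902 RPKM in the controls of sheep 1, 2 and 3. The linseed levels of sheep 1 and 2 were close to each other, while sheep 3 lay 18.6 and 18.0 times below them. The log2 change of CSN3 was -1.82 ± 1.24 (SE, n = 3 per group), with a limma adjusted p of 0.472.

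**Figure D1:**
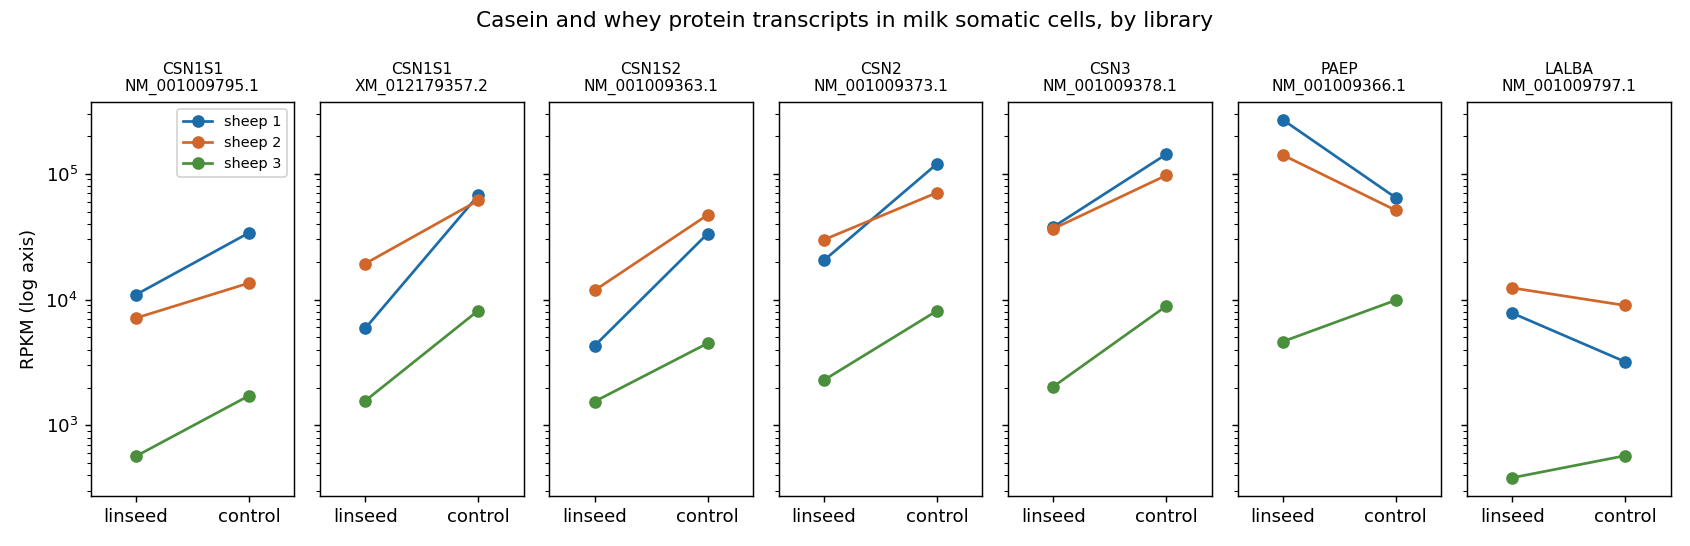
RPKM (log axis) of the 5 casein transcripts and of the whey protein genes PAEP and LALBA, linseed left and control right, with a line joining the libraries of each ewe. All casein lines are lower on the linseed side, and sheep 3 lies lowest throughout, at 2034 RPKM with linseed and 8902 RPKM in control for CSN3.

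Over all tested transcripts, limma called 0 of 15891 lower with linseed (0.00%), 0 higher, and 0 of the 5 casein transcripts. At an unadjusted p under 0.05 limma had 2 of the 5 casein transcripts, XM_012179357.2 of CSN1S1 and CSN1S2, and 15.5% of all transcripts in either direction. A fit that blocked on the ewe called 213 of 15891 lower (1.34%), 203 higher (1.28%), and again 0 of the 5 caseins. In that fit 4 of the 5 had an unadjusted p under 0.05, against 27.0% of all transcripts in either direction. The blocked adjusted p was 0.0625 for XM_012179357.2, 0.0821 for CSN1S2, 0.121 for CSN2, 0.126 for CSN3 and 0.201 for NM_001009795.1. These were the smallest adjusted p of each transcript over 18 other settings, and the largest ran from 0.917 to 0.978. All 5 were lower in all 3 ewes, as were 26.2% of tested transcripts, and 0 of 5 had groups that did not overlap, against 7.83% of tested transcripts lower and 13.3% higher in that way. The median log2 change of the caseins was -1.87, beside -0.12 over all tested transcripts. The 5 fitted changes spanned -2.52 to -1.38, and differences in change between caseins were not tested. Their SEs were 0.97 to 1.24 without the block. Those include the spread between ewes, and with the ewe as a block the SEs were 0.67 to 0.72. The median casein change was -0.73 without the linseed library of sheep 3 and -3.06 without its control library. Leaving out both libraries of a ewe moved it less, to -1.76 without sheep 1, -2.19 without sheep 2 and -1.90 without sheep 3.

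**Figure D2:**
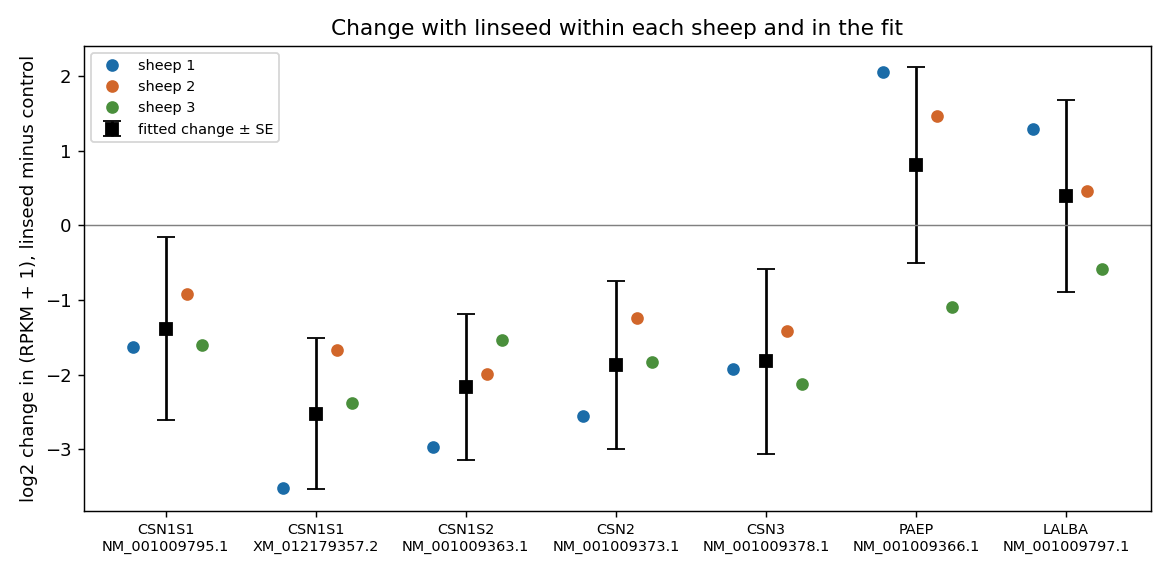
Change in log2(RPKM + 1), linseed minus control, for each ewe (coloured points) and in the fit over 6 libraries (black squares with SE bars). The bars come from the fit without the block, so they include the spread between ewes and do not measure the spread of the points. The 5 casein transcripts lie below 0 in every ewe, with fitted changes of -1.38 to -2.52, while PAEP and LALBA lie above 0 in sheep 1 and 2 and below it in sheep 3.

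Caseins took 7.54%, 11.3% and 1.12% of all RPKM with linseed in sheep 1, 2 and 3, against 48.9%, 32.9% and 5.58% in the controls of sheep 1, 2 and 3. The means were 6.64% ± 5.13 with linseed and 29.1% ± 21.9 in controls (SD, n = 3 each), and the two-sided exact permutation p was 0.3. The smallest p that 3 against 3 libraries allow is 0.1. Counted in reads, the share was 7.92%, 11.03% and 0.861% with linseed, against 41.7%, 30.7% and 3.43% in controls. In percentage points the shares differed by -22.5, a value that became -12.6 when control sheep 1 was left out and -34.2 when control sheep 3 was.

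Scaling the libraries by a total moved the casein changes together, and quantile normalization did not. Leaving 7 milk protein genes out of each library's total moved the median log2 change of all tested transcripts to -0.52 and that of the caseins to -2.48. Relative to that shift the casein median was -1.96, against -1.76 on the deposited scale. Quantile normalization made the log2 change smaller in size for CSN2 (-1.31), CSN1S2 (-1.92) and XM_012179357.2 (-2.36). It made the change larger in size for CSN3 (-2.20) and NM_001009795.1 (-1.65). RPKM outside the caseins summed to 973104, 824851 and 708676 with linseed in sheep 1, 2 and 3, against 415508, 591048 and 532416 in the controls of sheep 1, 2 and 3.

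The make-up of the casein messengers, which does not depend on how a library was scaled, differed between diets by less than the SD among the control ewes for each of the 4 genes. For CSN1S1 the difference of -3.23 percentage points was larger in size than the SD among the linseed ewes. An SD among ewes does not use the pairing by ewe. CSN3 made up 47.6%, 34.9% and 25.4% of casein RPKM with linseed in sheep 1, 2 and 3, against 36.0%, 33.6% and 28.3% in the controls of sheep 1, 2 and 3. CSN2 held 27.7% ± 1.60 with linseed and 26.8% ± 2.99 in controls (SD, n = 3 each). CSN1S1 held 24.4% ± 2.85 with linseed and 27.6% ± 3.39 in controls, and was lower with linseed in 3 of 3 ewes. CSN1S2 held 5.40%, 11.3% and 19.3% with linseed in sheep 1, 2 and 3, against 8.41%, 16.2% and 14.3% in the controls of sheep 1, 2 and 3. The two-sided exact permutation p was 0.8 for CSN3, 0.9 for CSN2, 0.4 for CSN1S1 and 1 for CSN1S2, and the sign of the difference turned for CSN1S2, CSN2 and CSN3 when single libraries were left out.

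Linseed sheep 1 had the most uneven casein mixture. Its CSN3 level was 8.81 times its CSN1S2 level, whereas the highest casein gene was 1.48 to 3.09 times the lowest in the other linseed libraries and 2.07 to 4.28 times in controls. CSN3 was the highest casein gene in 4 of 6 libraries. CSN2 led in linseed sheep 3 and CSN1S1, summed over its transcripts, in control sheep 3. The calcium-sensitive caseins together had 1.10, 1.86 and 2.94 times the RPKM of CSN3 with linseed in sheep 1, 2 and 3, against 1.78, 1.98 and 2.53 times in the controls of sheep 1, 2 and 3. The log2 of this ratio differed by -0.19 between diets (two-sided exact permutation p = 0.8).

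**Figure D3:**
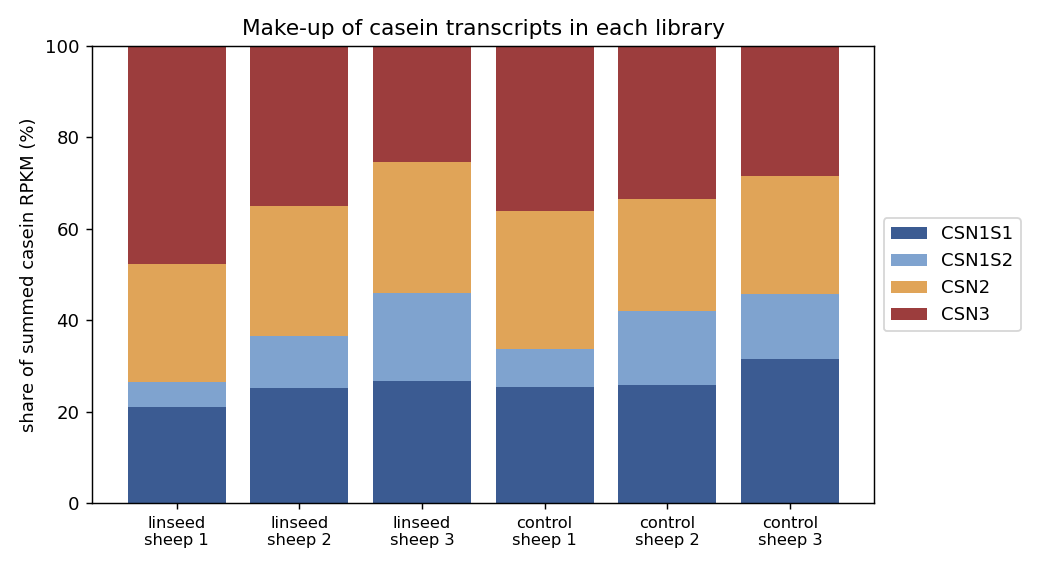
Share of summed casein RPKM (%) taken by each casein gene in each library, with linseed libraries left and controls right. CSN3 takes 25.4% to 47.6% with linseed and 28.3% to 36.0% in controls, and linseed sheep 1 has the smallest CSN1S2 share, 5.40%.

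The pair of CSN1S1 transcripts did not keep one proportion. The ratio of XM_012179357.2 to NM_001009795.1 was 0.541, 2.71 and 2.76 with linseed in sheep 1, 2 and 3, against 1.98, 4.53 and 4.76 in the controls of sheep 1, 2 and 3. The ratio was lower with linseed in 3 of 3 ewes, and NM_001009795.1 exceeded the other transcript only in linseed sheep 1. The mean log2 ratio was 0.67 ± 1.35 with linseed and 1.81 ± 0.71 in controls (SD, n = 3 each; two-sided exact permutation p = 0.3), and the difference of -1.14 was -0.36 without linseed sheep 1. The transcripts are 1380 and 1110 nt long and come from one gene, so their values depend on how shared reads were divided, which is not given in the sources used here.

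Caseins were set against the main whey proteins of the same library, beta-lactoglobulin (PAEP) and the lactose synthase subunit alpha-lactalbumin (LALBA). PAEP had 268127, 140693 and 4634 RPKM with linseed in sheep 1, 2 and 3, against 64306, 51089 and 9885 RPKM in the controls of sheep 1, 2 and 3. LALBA had 7805, 12368 and 383.8 RPKM with linseed, against 3200.5, 8977 and 574.8 RPKM in controls, in the same order of sheep. Both were higher with linseed in sheep 1 and 2 and lower in sheep 3, and neither passed limma (adjusted p of 0.780 and 0.899).

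The ratio of caseins to PAEP and LALBA separated the diets. It was 0.288, 0.684 and 1.60 with linseed in sheep 1, 2 and 3, against 5.89, 4.82 and 3.01 in the controls of sheep 1, 2 and 3. All linseed ratios lay below all control ratios, and the gap was widest in sheep 1 and narrowest in sheep 3. The mean log2 ratio was -0.56 ± 1.24 with linseed and 2.14 ± 0.50 in controls (SD, n = 3 each). The two-sided exact permutation p was 0.1, the smallest that 3 against 3 libraries allow, but that test does not use the pairing by ewe. Flipping the signs of the within-ewe differences gave a two-sided exact p of 0.25, the smallest that 3 ewes allow. Each casein transcript, set against PAEP and LALBA by itself, was lower in all linseed libraries than in any control library (5 of 5), as were 173 of 15891 tested transcripts (1.09%). The 5 ratios share one denominator and the same libraries, so they are not 5 separate observations. CSN3 had 0.141, 0.260 and 0.439 times the RPKM of PAEP with linseed in sheep 1, 2 and 3, against 2.22, 1.90 and 0.901 times in the controls of sheep 1, 2 and 3.

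**Figure D4:**
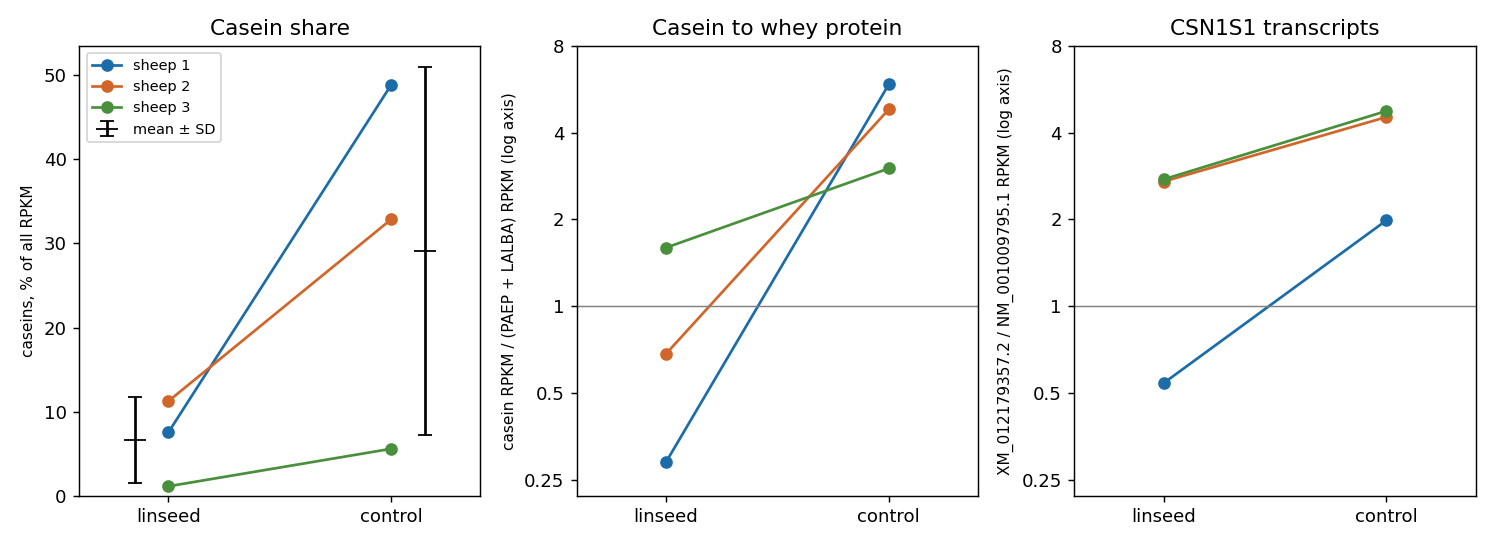
Casein share of all RPKM (left, with mean and SD), casein RPKM over that of PAEP and LALBA (middle, log axis) and the ratio of the CSN1S1 transcripts (right, log axis), linseed left and control right in each panel, one line per ewe. All lines are lower on the linseed side, and in the middle panel the linseed values, 0.288 to 1.60, lie apart from the control values, 3.01 to 5.89.

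Markers of the cells that make casein differed in direction between genes. Of 16 mammary epithelial genes, 6 were matched and tested, with a median log2 change of -0.78. In all 3 ewes 3 of the 6 were lower and 0 higher, against 26.2% and 23.0% of all tested transcripts. The summed level of the 6 was 102.3 to 1376 RPKM with linseed and 432.6 to 1031 RPKM in controls. The adhesion protein gene EPCAM had 23.5, 63.4 and 4.37 RPKM with linseed in sheep 1, 2 and 3, against 214.5, 90.9 and 17.8 RPKM in the controls of sheep 1, 2 and 3. The keratin gene KRT8 had 354.9, 500 and 21.3 RPKM with linseed, against 17.6, 98.6 and 54.5 RPKM in controls, in the same order of sheep. Neither passed limma (adjusted p of 0.398 and 0.434). The surface protein gene CD24 had 29.6, 38.5 and 51.7 RPKM with linseed, against 265.3, 132.8 and 286.9 RPKM in controls. Its groups did not overlap, and its limma adjusted p was 0.263, and 0.0461 with the ewe as a block. Of all tested transcripts, 7.83% were lower without overlap, and the blocked fit called 1.34% lower.

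The casein level relative to epithelium depended on the marker. Over the summed markers without ELF5, the ratio was 98.6, 77.7 and 81.6 with linseed in sheep 1, 2 and 3, against 409.3, 532.2 and 77.8 in the controls of sheep 1, 2 and 3 (two-sided exact permutation p of the log2 ratio = 0.3). Over summed markers, sheep 3 alone had no lower ratio with linseed. In that ewe CD24 alone held 286.9 of the 403.9 RPKM of these markers in control and 51.7 of 98.2 RPKM with linseed. Over the mean of the markers' log2 values the ratio of sheep 3 was lower too, with a log2 difference of -0.42. The log2 difference of -1.59 was -2.45 without control sheep 3, -1.06 without control sheep 2 and -0.99 without both libraries of sheep 2. Over EPCAM, chosen after its values were seen, the ratio was 3374, 1651 and 1832 with linseed, against 1853, 3186 and 1763 in controls, with groups that overlapped. Over KRT8, also chosen afterwards, it was 223.7, 209.2 and 375.2 with linseed, against 22576, 2937 and 577.0 in controls, with groups that did not overlap.

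Immune cell markers are given beside the caseins because the cells came as a mixture. The summed neutrophil list, 8 of 12 genes matched, was 2480 to 3206 RPKM with linseed and 424.7 to 1152 RPKM in controls. Most of that sum was S100A9 and S100A8 in every library. S100A9 had 1790, 1383 and 933.9 RPKM with linseed in sheep 1, 2 and 3, against 222.4, 300.3 and 296.7 RPKM in controls. The groups did not overlap for S100A9 and S100A8, as for 13.3% of tested transcripts that were higher, and did overlap for MMP9 and CXCR2. The summed macrophage list, 10 of 14 matched, was 986.5 to 2376 RPKM with linseed and 164.2 to 1234 RPKM in controls, lowest in control sheep 1, the library with the highest casein share. Of the tested genes, 4 of 7 neutrophil and 4 of 9 macrophage genes were higher in all 3 ewes, against 23.0% of tested transcripts. In each of these lists 1 gene was lower in all 3 ewes, against 26.2% of tested transcripts. T and NK cell genes, 10 of 16 matched, summed to 73.4 to 172.8 RPKM with linseed and 9.73 to 696.6 RPKM in controls. B and plasma cell genes, 8 of 9 matched, summed to 8.63 to 33.0 RPKM with linseed and 2.03 to 30.8 RPKM in controls. Of 5 erythrocyte genes 2 were matched, at no more than 0.40 RPKM in sum, and ALAS2 was at 0. Limma without the block called 0 members of these lists. With it, 1 of 9 macrophage genes was called, TREM2, at 304.0, 257.6 and 276.9 RPKM with linseed in sheep 1, 2 and 3, against 6.75, 83.0 and 13.5 RPKM in the controls of sheep 1, 2 and 3 (adjusted p = 0.0401), against 1.28% of all tested transcripts called higher. The part of the cell mixture in the casein values was not tested.

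The genes whose levels over the 6 libraries ran closest to the caseins were picked by the root mean square distance between centred log2 profiles. Among 5972 genes with a symbol, the nearest was EPCAM, at a distance of 0.38 on the log2 scale, beside a median of 2.22 over all these genes. Others among the nearest were LOC101106941 (0.55), the syndecan gene SDC2 (0.60), the tetraspanin gene TSPAN1 (0.64), the small heat shock protein gene CRYAB (0.66), the cysteine dioxygenase gene CDO1 (0.67), ANKRD1 (0.67) and AIF1L (0.68). CRYAB was the most abundant of these, at 794.9, 1944 and 73.5 RPKM with linseed in sheep 1, 2 and 3, against 2516, 2056 and 168.1 RPKM in the controls of sheep 1, 2 and 3. TSPAN1 had 48.0, 63.2 and 2.67 RPKM with linseed, against 149.9, 64.1 and 16.6 RPKM in controls, in the same order of sheep. All 8 were lower with linseed in 3 of 3 ewes, which adds nothing of its own, since likeness to the caseins chose them. The casein transcripts themselves lay 0.24 to 0.71 from their mean profile. Among other milk protein and milk fat globule genes, BTN1A1 held place 21, GLYCAM1 place 41, LPO place 45, LTF place 163, LALBA (1.43) place 201, PAEP (1.74) place 521 and SPP1 place 3156. The epithelial genes CD24 and KRT8 held places 728 and 4601, and the signalling genes STAT5A, STAT5B and JAK2 places 2058, 2659 and 2782. These are descriptions of 6 libraries, without a test.

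**Figure D5:**
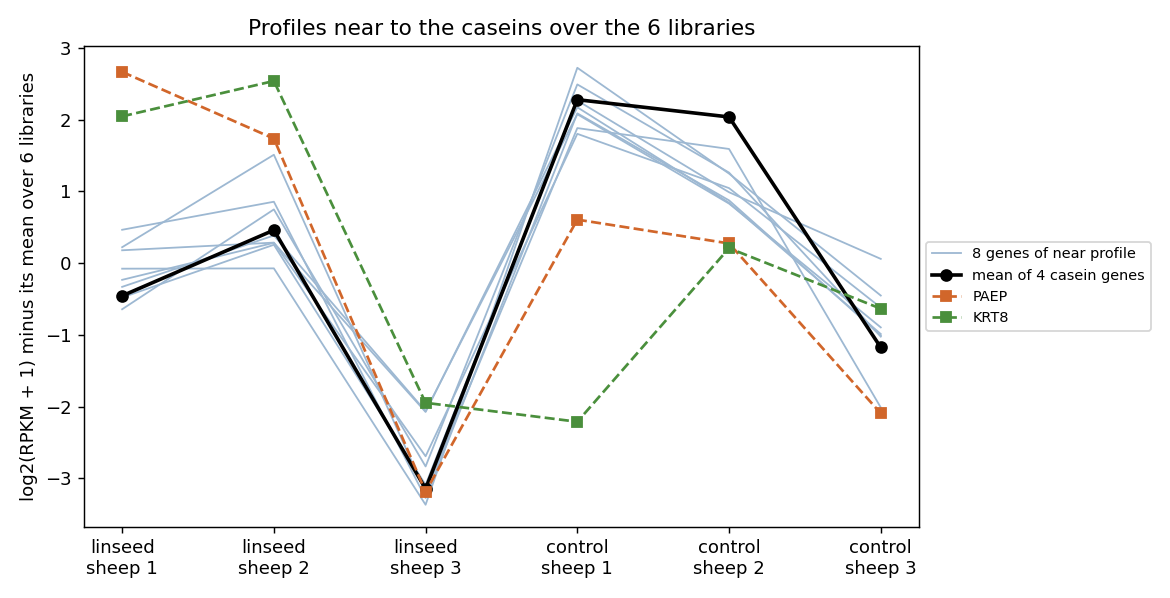
Centred log2(RPKM + 1) in each library, linseed left and control right, for the mean of the 4 casein genes (black), 8 genes of near profile (pale lines), PAEP and KRT8; lines only join the points of one gene. The caseins and their neighbours peak in control sheep 1 and bottom in linseed sheep 3, whereas PAEP is highest in linseed sheep 1 and KRT8 in linseed sheep 2.

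The hormone pathway to the casein genes was lower in every ewe about as often as any transcript. Of 24 genes of prolactin, growth hormone and glucocorticoid signalling, 17 were matched and 15 tested. Their median log2 change was -0.52, beside -0.12 over all tested transcripts. Of the 15, 4 were lower in all 3 ewes, against 26.2% of tested transcripts, and 0 were higher, against 23.0%. Limma called 0 of them, with or without the block. The kinase gene JAK2 had 0.918, 1.73 and 3.87 RPKM with linseed in sheep 1, 2 and 3, against 7.08, 3.04 and 15.7 RPKM in the controls of sheep 1, 2 and 3. STAT5A, the transcription factor that JAK2 activates, had 7.75, 7.24 and 7.68 RPKM with linseed, against 8.39, 9.22 and 29.4 RPKM in controls. Both were highest in control sheep 3, the control with the fewest casein messengers. The summed T and NK cell list was also highest in that library, at 696.6 RPKM. What set the levels of JAK2 and STAT5A in the mixture of cells was not tested. STAT5B had a log2 change of -0.52 ± 0.64 (SE), and the mammary transcription factor gene ELF5 one of -1.10 ± 0.82. The glucocorticoid receptor gene NR3C1 had -1.55 ± 0.76, and the C/EBP factor genes CEBPA and CEBPB had 1.83 ± 0.77 and 1.30 ± 0.76. PRLR was not matched and is not analysed here.

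Genes that modify and fold caseins on the way to secretion were lower in the median without passing the test. Of 18, 10 were matched and tested, with a median log2 change of -0.96 and 0 called by limma with or without the block. In all 3 ewes 3 of the 10 were lower and 1 higher, against 26.2% and 23.0% of all tested transcripts. The endoplasmic reticulum chaperone gene HSPA5 had 62.3, 162.0 and 183.3 RPKM with linseed in sheep 1, 2 and 3, against 920.7, 392.4 and 197.5 RPKM in the controls of sheep 1, 2 and 3. Its controls ran in the same order of sheep as the CSN3 levels, and its linseed levels did not. GALNT3, which starts O-linked sugar chains, had a log2 change of -1.62 ± 0.55 (SE), C1GALT1C1, a chaperone of the enzyme that extends them, -1.55 ± 0.75, and calnexin (CANX) -1.34 ± 0.74.

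Genes that supply calcium, phosphate and zinc were lower in 6 of 8 tested members in all 3 ewes, with 0 higher. Over all tested transcripts these shares were 26.2% lower and 23.0% higher. The median log2 change of the list was -1.37, and 10 of 17 listed genes were matched. The zinc importer gene SLC39A8 had 18.1, 7.04 and 1.19 RPKM with linseed in sheep 1, 2 and 3, against 321.5, 21.1 and 28.8 RPKM in the controls of sheep 1, 2 and 3. Its limma adjusted p was 0.264, and 0.0427 with the ewe as a block. With that block, 1.34% of all tested transcripts were called lower. The Golgi calcium pump gene ATP2C1 had a log2 change of -1.61 ± 0.62 (SE), the zinc exporter gene SLC30A4 one of -1.48 ± 0.55 and the phosphate transporter gene SLC20A1 one of -1.25 ± 0.60, none of them called.

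Among amino acid transporters, 9 of 14 were matched and 7 tested, with a median log2 change of -1.29. In all 3 ewes 5 of the 7 were lower and 1 higher, against 26.2% and 23.0% of all tested transcripts. SLC6A14, which carries neutral and cationic amino acids, had 11.3, 22.4 and 2.55 RPKM with linseed in sheep 1, 2 and 3, against 517.3, 89.4 and 24.7 RPKM in the controls of sheep 1, 2 and 3. The neutral amino acid transporter gene SLC38A2 had 3.95, 6.74 and 37.7 RPKM with linseed, against 48.1, 32.5 and 161.8 RPKM in controls. Without the block their limma adjusted p was 0.263 and 0.266, and with the ewe as a block 0.0427 and 0.0441. The blocked fit called 1.34% of all tested transcripts lower. The glutamate transporter gene SLC1A1 had a log2 change of -1.59 ± 0.82 (SE). SLC3A2, the heavy chain shared by several transporters, was the member higher in all 3 ewes, at 1.22 ± 0.63.

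Proteases that can cut casein and their inhibitors were 12 of 17 matched and 10 tested, with a median log2 change of -0.52 and 0 called. In all 3 ewes 3 of the 10 were higher and 2 lower, against 23.0% and 26.2% of all tested transcripts. The lysosomal cathepsin gene CTSB had 1486, 3587 and 5541 RPKM with linseed in sheep 1, 2 and 3, against 604.4, 2175 and 944.9 RPKM in the controls of sheep 1, 2 and 3. CTSH had a log2 change of 2.21 ± 0.69 (SE), MMP9 one of 2.10 ± 1.03 and the plasminogen activator gene PLAU one of -1.48 ± 0.81. PLG, which encodes plasminogen, the precursor of the main casein-cutting enzyme of milk, was listed at 0 in all 6 libraries.

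Over the 5 lists of signalling, modification, mineral, amino acid and protease genes, 20 of 50 tested genes were lower in all 3 ewes and 5 higher, against 26.2% and 23.0% of all tested transcripts. Limma called 0 of 50 without the block, where 9 had an unadjusted p under 0.05, against 15.5% of all tested transcripts. With the block it called 3 of 50, all lower, against 1.34% of all tested transcripts called lower.

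Of 9 listed genes of other secreted milk proteins, 7 were matched and 6 tested. In all 3 ewes 0 of the 6 were lower and 0 higher, against 26.2% and 23.0% of all tested transcripts. Whether these counts differ from those shares was not tested. Limma called 0, and 1 had an unadjusted p under 0.05, against 15.5% of all tested transcripts. Osteopontin (SPP1), a phosphoprotein of milk and bone, had 232.2, 843.0 and 3661 RPKM with linseed in sheep 1, 2 and 3, against 4453, 4472 and 2376 RPKM in the controls of sheep 1, 2 and 3. The mucin-like GLYCAM1 had 11165, 10189 and 403.3 RPKM with linseed, against 12400, 8057 and 2202 RPKM in controls. Lactoferrin (LTF) had 266.8, 186.9 and 4.75 RPKM with linseed, against 1147, 87.7 and 50.3 RPKM in controls.

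In the gene order of assembly ARS-UI_Ramb_v3.0, used for names and neighbours only, the casein genes lie together on chromosome 6 in the order CSN1S1, CSN2, CSN1S2 and CSN3. The locus holds 3 further genes, ODAM and 2 long non-coding RNA genes, none of which was matched to the table. Of the 3 genes on each side, LOC101120084 and LOC105612196 were matched. LOC105612196 did not exceed 0.918 RPKM in any library and LOC101120084 was lower still, so high levels at the locus were measured for the caseins alone among the 6 genes matched.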

How the data were processed

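The authors deposited RPKM values of 49705 RefSeq transcripts in 6 columns with decimal commas. The submitters' processing notes name Trimmomatic 0.33. Aligner, counting tool and build: not given in the sources used here. RPKM is not a count, so no count model was run. Gene symbols were looked up by accession, without version, in RefSeq's table for ARS-UI_Ramb_v3.0 (15836 transcripts matched, 31.9%).

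Linseed was set against control in limma 3.58.1 (R 4.3.3, mean-variance trend, Benjamini-Hochberg over all tested transcripts, adjusted p under 0.05 called) on log2(RPKM + 1), so changes of low transcripts are understated. Tests covered 15891 transcripts averaging 1 RPKM or more. Shares and ratios went through a two-sided exact permutation test over 20 assignments; sums use every transcript of a gene, list members their most abundant one. Library totals, lengths and reads were solved from whole-read steps in the RPKM values, to within 0.02 reads. The limma fit and the solving of totals were tested on simulated data.

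The same ewe stands under the same number in both groups, by the animal identifiers in the labels, so numbers pair the libraries. The correlation of a ewe's deviations from both group means was 0.18, 0.25 and 0.40 in sheep 1, 2 and 3. Between different ewes it ran from -0.40 to 0.24. The highest of these, linseed sheep 2 with control sheep 1, exceeded the value of sheep 1 with itself. The fit without the block is given first, with 4 residual degrees of freedom against 2 with it.

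The members, gene lists and tests were chosen with earlier results of these data known. Named genes were the members, PAEP and LALBA, the 10 nearest profiles (2 of which are not reported here), up to 4 members of smallest p per list with the main signalling genes, and genes of the locus; PLG and ALAS2 were named after their values were seen. Alternatives covered the block, pseudocount, filter, scaling, trend and leaving out libraries; leaving out both libraries of a ewe and the share of reads were chosen after seeing the data. No sequences are printed.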

Additional observations from a re-analysis of the deposited data

How the results depend on the processing

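None of the 5 casein transcripts was called or turned its direction in limma under any of 18 alternatives, which include blocking on the ewe. In each alternative but the block, limma called 0 of all tested transcripts, so the lack of a call there is not particular to caseins. With the block it called 416 of 15891. Without 1 library the log2 change ran from -3.51 to -1.60 for XM_012179357.2 of CSN1S1, -2.60 to -0.07 for NM_001009795.1, -3.21 to -1.43 for CSN1S2, -3.04 to -0.73 for CSN2 and -3.06 to -0.42 for CSN3. The smallest size of each came without linseed sheep 3 and the largest without control sheep 3. The casein share of RPKM, the log2 ratios of caseins to whey proteins (-3.59 to -1.87 over its alternatives) and to epithelial markers, the log2 ratio of the CSN1S1 transcripts and the CSN1S1 share kept their direction under all settings run. With the ewe as a replicate block (sign flips, whose smallest two-sided p is 0.25), the difference in casein share stayed at -22.5 percentage points with an exact p of 0.25.

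The other casein shares turned, and the cause was not tested. Without 1 library the difference in share of casein RPKM ran from -4.64 to 2.33 percentage points for CSN1S2, -0.37 to 2.51 for CSN2 and -2.46 to 8.65 for CSN3, and the log2 ratio of calcium-sensitive caseins to CSN3 from -0.53 to 0.17. Without both libraries of sheep 1 the CSN1S2 share differed by 0.0423, the CSN3 share by -0.775 and that log2 ratio by 0.0634. Without sheep 2 the CSN1S2 share differed by 1.01 and the CSN2 share by -0.821, and without sheep 3 the CSN2 share by -0.0956. The block moved the count of pathway genes called to 3 of 50, against 0 without it, and the count over all transcripts to 416, against 0. The block changed no casein call. Counting error was at most 0.892% of a casein value, and each group held 3 libraries.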
